A study of Homo sapiens with 39 samples.

Results

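Transcripts of 9 growth factor receptor genes were followed in C4-2B cells, out of 63187 gene identifiers in the count table. The genes were taken by name and comprise the 4 ERBB family receptors (EGFR, ERBB2, ERBB3 and ERBB4), the 4 FGF receptors with a kinase domain (FGFR1, FGFR2, FGFR3 and FGFR4) and MET, the receptor for hepatocyte growth factor. C4-2B is a castration-resistant derivative of the LNCaP prostate cancer line, so every library came from this 1 line, grown in RPMI 1640 with serum. In the 5-day panel, cells received DMSO as vehicle, abiraterone at 5 µM (Abi), enzalutamide at 20 µM (Enz), olaparib at 1 µM (Ola), talazoparib at 10 nM (Tala), abiraterone plus olaparib, or enzalutamide plus talazoparib, the combinations holding the same doses as the single agents. In the time course, cells received DMSO, olaparib at 1 µM or olaparib at 5 µM for 1 or 5 days. Each of the 13 groups held 3 libraries, 39 in all, and no label states whether the 3 came from separate cultures, so the p-values measure the spread between these libraries.

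Receptor tyrosine kinases span the cell membrane, bind a growth factor outside the cell and phosphorylate one another inside it, which starts the RAS-ERK and PI3K-AKT cascades. ERBB receptors work in pairs: ERBB2 binds no ligand of its own, ERBB3 has a weak kinase and passes signal mainly to PI3K, and EGFR and ERBB4 bind EGF-like or neuregulin ligands. FGF receptors need heparan sulphate or a klotho protein beside their ligand, and MET has a single ligand, HGF. In prostate cancer these receptors are studied as inputs that can sustain growth when androgen signalling is blocked. Abiraterone blocks androgen synthesis and enzalutamide blocks the androgen receptor itself, and both are androgen receptor pathway inhibitors (ARPi). Olaparib and talazoparib inhibit poly(ADP-ribose) polymerase (PARPi). The comparisons address how the receptor transcripts stood under each drug class, under both together, and with dose and time of olaparib.

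The promoters of MET, FGFR3 and ERBB2 are shown because the results below dwell on these receptors and the table used held their windows. RefSeq windows of 300 bases (250 before a start that RefSeq gives and 50 after it, GRCh38.p14, plus strand for the 3 genes) were available for 7 of the 9 receptors, and those of ERBB3 and FGFR1 were not in the table used. They lie at chr7:116671946-116672245 for MET, chr4:1793043-1793342 for FGFR3 and chr17:39687844-39688143 for ERBB2. The MET and FGFR3 windows are set on the first base of the gene in GENCODE, whereas GENCODE begins ERBB2 at position 39687914, inside the window and upstream of the RefSeq start it is set on. Capitals mark every match, on either strand, to the GC box GGGCGG, the CCAAT box CCAAT, the androgen receptor hexamer AGAACA, the E-box CACGTG and the TATA box TATAAA.
MET: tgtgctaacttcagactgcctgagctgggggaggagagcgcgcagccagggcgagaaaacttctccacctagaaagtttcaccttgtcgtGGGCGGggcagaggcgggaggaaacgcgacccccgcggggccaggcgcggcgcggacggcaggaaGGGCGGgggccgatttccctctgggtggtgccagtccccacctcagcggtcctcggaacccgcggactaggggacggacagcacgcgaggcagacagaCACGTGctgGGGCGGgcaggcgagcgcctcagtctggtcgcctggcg
FGFR3: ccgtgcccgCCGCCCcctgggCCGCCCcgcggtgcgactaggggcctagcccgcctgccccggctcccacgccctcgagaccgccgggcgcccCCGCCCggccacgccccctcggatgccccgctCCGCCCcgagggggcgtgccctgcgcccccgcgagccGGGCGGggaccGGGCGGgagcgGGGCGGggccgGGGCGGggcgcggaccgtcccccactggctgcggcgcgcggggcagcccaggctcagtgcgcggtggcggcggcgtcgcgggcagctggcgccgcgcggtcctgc
ERBB2: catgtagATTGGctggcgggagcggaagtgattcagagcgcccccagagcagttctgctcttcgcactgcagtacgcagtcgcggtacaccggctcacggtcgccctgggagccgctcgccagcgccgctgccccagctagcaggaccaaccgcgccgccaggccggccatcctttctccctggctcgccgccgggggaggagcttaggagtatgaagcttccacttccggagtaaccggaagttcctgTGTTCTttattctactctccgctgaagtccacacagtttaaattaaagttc
The MET window held 3 GC boxes and 1 E-box, and the FGFR3 window held 8 GC boxes and none of the other 4 motifs. The ERBB2 window held 1 CCAAT box and 1 androgen receptor hexamer, and no GC box. The annotation lists 22 transcripts of ERBB2, and whether the measured transcripts began at the start in this window was not tested. Of 35116 RefSeq windows of this length, 45% held a GC box, 34.6% a CCAAT box, 14.8% the androgen receptor hexamer, 7.26% the E-box and 11.5% the TATA box. Guanine and cytosine made up 86.3% of the FGFR3 window, 69.3% of the MET window and 60.7% of the ERBB2 window. These matches describe letters only, and no binding was measured.

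Libraries held 26932205 to 49833473 counts in the panel (median 36348316) and 34214001 to 44893664 in the time course (median 37545065). Levels are given as CPM, a gene's count relative to the total of its library, scaled within each experiment by TMM, which sets library sizes so that most genes do not differ. Among the treatment controls, KLK3, the androgen receptor target that encodes prostate-specific antigen, fell by 1.58 on the log2 scale with abiraterone and by 2.25 with enzalutamide, and CDKN1A, the p53 target that encodes p21, rose by 2.18 with olaparib. CDKN1A also rose with the ARPi, by 0.82 (adjusted p = 1.07e-10) with abiraterone and 0.18 (adjusted p = 0.00983) with enzalutamide. KLK3 in turn rose with the PARPi, by 0.175 (adjusted p = 0.00439) with olaparib and 0.21 (adjusted p = 0.00108) with talazoparib. With 5 µM olaparib in the time course KLK3 fell by 0.29 (adjusted p = 6.93e-11) at day 1 and rose by 0.59 (adjusted p = 1e-17) at day 5. All 10 luminal prostate markers had a mean of at least 1 CPM in both experiments. Of the other marker lists, 2 of 3 basal markers (KRT5, TP63), 2 of 4 fibroblast markers (DCN, LUM), 1 of 4 immune markers (CD3E) and 2 of 4 neuroendocrine markers (CHGA, INSM1) stayed at 3 counts or fewer in each library, as did 1 of 3 endothelial markers (PECAM1) in the panel. The fibroblast, immune, endothelial and neuroendocrine lists each held 1 gene with a mean of at least 1 CPM. These sums moved with treatment. The fibroblast sum, nearly all COL1A1, was 10.6 to 13.8 CPM with DMSO in the panel and 17.5 to 22.9 CPM in the groups with an ARPi. The immune sum, mostly CD68, a lysosomal protein, was 4.38 to 7.13 CPM with DMSO, 13.1 to 15.7 CPM with a PARPi alone and 27 to 29.6 CPM at 5 µM of day 5. The endothelial sum, nearly all VWF, ran from 7.68 to 22.6 CPM over all libraries, the neuroendocrine sum, mostly SYP, from 0.901 to 2.72 CPM, and the basal sum, led by KRT14, from 0 to 1.94 CPM. Their part in the receptor results was not tested. With scaling by total counts in place of TMM, the median gene in the contrast of the 5 µM olaparib effect between days moved from -0.02 to -0.15 on the log2 scale. In the other 20 comparisons the 2 scalings put the median within 0.1 of each other.

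The receptors spanned a wide range of levels in untreated cells. Per kilobase of annotated exon, ERBB3 was the highest at 20.8 ± 0.68 CPM per kb (SD, n = 3) in the DMSO panel libraries, followed by ERBB2 at 13.3 ± 0.85 and EGFR at 8.97 ± 0.29 CPM per kb. FGFR3 stood at 1.38 ± 0.12, MET at 1.08 ± 0.05 and FGFR4 at 0.869 ± 0.13 CPM per kb. FGFR1 and FGFR2 were lower, at 0.388 ± 0.03 and 0.147 ± 0.01 CPM per kb. ERBB4 was at 0.00983 CPM per kb, 0 to 9 counts in each of the 39 libraries, and it failed the filter on low counts, so 8 of the 9 receptors were tested. With the longest transcript in place of all exons, MET at 1.13 CPM per kb fell below FGFR4 at 1.35, and FGFR1 stood at 1.07, so the order among these genes rests on the length used. In the DMSO libraries of day 5 of the time course, MET at 1.81 ± 0.11 and FGFR3 at 1.85 ± 0.07 CPM per kb lay within their spread of each other.

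**Figure D1:**
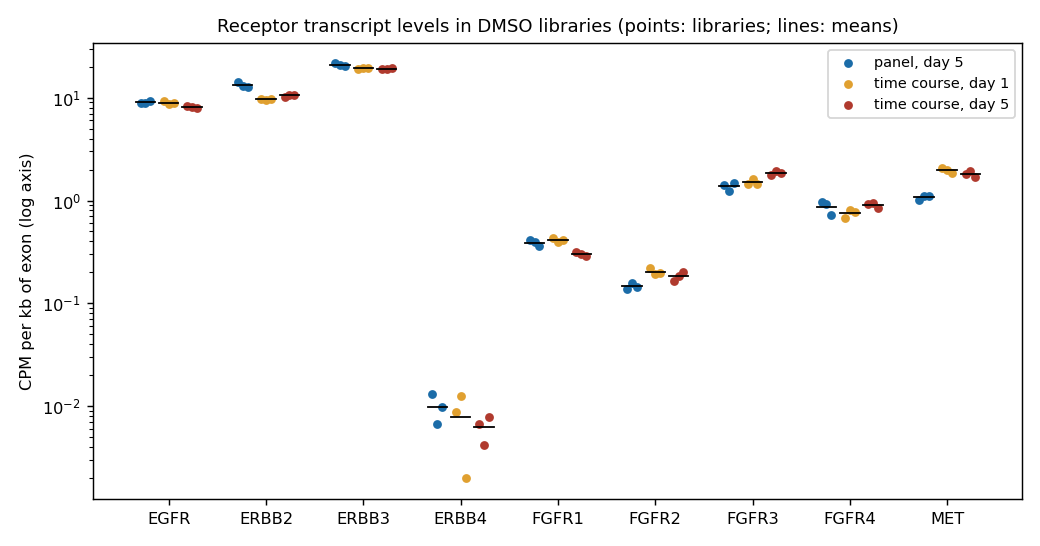
Level of each receptor transcript in DMSO libraries as CPM per kilobase of exon on a log axis, with points for libraries (3 per group) and lines for means, for the panel and for both days of the time course. ERBB3, ERBB2 and EGFR sat above 5 CPM per kb in every library shown, and ERBB4 was the lowest in each.

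Of the 8 tested receptors, MET showed the widest difference with ARPi. Its level was 7.37, 7.92 and 8.05 CPM in the DMSO libraries of the panel, 25.6, 25 and 24.3 CPM with abiraterone, and 20.3, 22.5 and 20.1 CPM with enzalutamide. Every ARPi library lay above every DMSO library. MET rose by 1.68 ± 0.07 on the log2 scale (SE, 3.2-fold, adjusted p = 7.45e-21) with abiraterone and by 1.43 ± 0.07 (2.69-fold, adjusted p = 8.09e-19) with enzalutamide, where adjusted p is that of edgeR's quasi-likelihood test with Benjamini-Hochberg adjustment over all genes tested. FGFR1, a receptor for many FGFs, was at 7.06, 6.78 and 6.15 CPM with DMSO, 10.3, 10.5 and 10.7 CPM with abiraterone, and 11.4, 11.9 and 11.9 CPM with enzalutamide. It rose by 0.65 ± 0.10 (adjusted p = 1.1e-06) and by 0.82 ± 0.10 (adjusted p = 8.69e-09), again with no overlap between groups. In bulk RNA a different CPM cannot tell transcript per cell from the number of cells that carry it.

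Within the ERBB family the members went in different directions under ARPi. ERBB2, the shared partner of the family, was at 147, 135 and 130 CPM with DMSO, 230, 224 and 221 CPM with abiraterone, and 196, 200 and 200 CPM with enzalutamide. The groups did not overlap, and ERBB2 rose by 0.71 ± 0.03 on the log2 scale (1.64-fold, adjusted p = 9.34e-20) with abiraterone and by 0.53 ± 0.03 (1.45-fold, adjusted p = 3.14e-16) with enzalutamide. In the annotation, 5.53% of the ERBB2 exon bases are shared with MIEN1 and 1.4% with PGAP3, which both run on the opposite strand. ERBB3 was at 252, 241 and 237 CPM with DMSO, 258, 268 and 266 CPM with abiraterone, and 278, 267 and 267 CPM with enzalutamide, a rise of 0.12 ± 0.03 (adjusted p = 0.000272) and 0.15 ± 0.03 (adjusted p = 6.73e-06). EGFR, by contrast, was at 141, 140 and 148 CPM with DMSO, 108, 127 and 113 CPM with abiraterone, and 111, 109 and 111 CPM with enzalutamide. All ARPi libraries lay below the DMSO libraries for EGFR, which fell by 0.305 ± 0.04 (adjusted p = 5.76e-07) and by 0.37 ± 0.04 (adjusted p = 1.71e-08).

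FGFR3 was the other receptor that passed as lower with both ARPi, and the size differed between the 2 drugs. Its level was 6.79, 6.02 and 7.19 CPM with DMSO, 5.49, 4.54 and 5.45 CPM with abiraterone, and 2.43, 3.70 and 2.90 CPM with enzalutamide. The 3 groups did not overlap. FGFR3 fell by 1.13 ± 0.13 on the log2 scale (adjusted p = 1.31e-09) with enzalutamide and by 0.37 ± 0.12 (adjusted p = 0.00911) with abiraterone. The abiraterone difference missed the threshold without DMSO replicate C (-0.31, adjusted p = 0.0529) and without abiraterone replicate B (-0.29, adjusted p = 0.0684). Between the drugs, FGFR3 was lower with enzalutamide than with abiraterone by -0.76 ± 0.13 (adjusted p = 3.3e-05), MET by -0.25 ± 0.06 (adjusted p = 0.00326) and ERBB2 by -0.18 ± 0.03 (adjusted p = 6.34e-05). These 3 of 8 tested receptors stood against 19.8% of all genes tested.

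In both ARPi comparisons 6 of the 8 tested receptors passed the threshold, 4 higher and 2 lower. Over all 18625 genes tested, 52.9% passed with abiraterone (25.8% higher and 27.1% lower) and 53.3% with enzalutamide (27.0% higher and 26.3% lower). With scaling by total counts the higher share of the calls with abiraterone moved from 48.7% to 60%, and with enzalutamide from 50.7% to 59.1%.

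**Figure D2:**
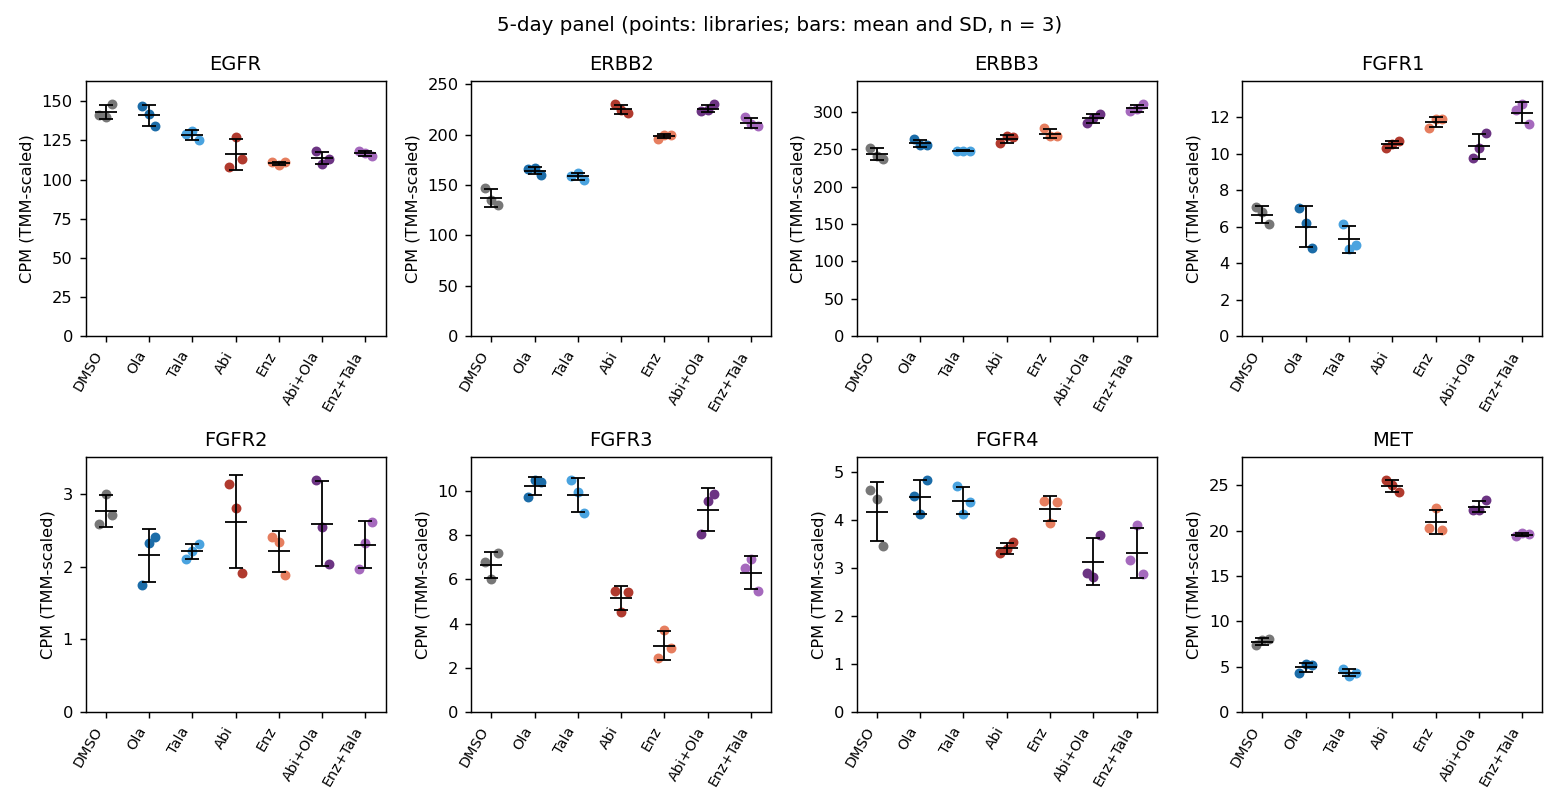
CPM of the 8 tested receptors in the 7 groups of the 5-day panel on linear axes from 0, with points for libraries and bars for the mean and SD (n = 3). MET sat between 19.4 and 25.6 CPM in every library that received an ARPi and between 3.99 and 8.05 CPM in the others.

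PARPi alone moved MET and FGFR3 in the opposite direction to ARPi. MET was at 4.34, 5.28 and 5.16 CPM with olaparib and 4.77, 3.99 and 4.26 CPM with talazoparib, below the 3 DMSO libraries. It fell by 0.665 ± 0.08 on the log2 scale (adjusted p = 6.14e-08) and by 0.85 ± 0.08 (adjusted p = 4.97e-10). FGFR3 was at 9.74, 10.5 and 10.4 CPM with olaparib and 10.5, 9.95 and 8.99 CPM with talazoparib, above the 3 DMSO libraries, a rise of 0.61 ± 0.11 (adjusted p = 3.63e-05) and 0.55 ± 0.11 (adjusted p = 0.000155). ERBB2 rose here too: its 166, 167 and 160 CPM with olaparib and 159, 162 and 155 CPM with talazoparib amounted to a rise of 0.26 ± 0.03 (adjusted p = 5.31e-08) and 0.21 ± 0.03 (adjusted p = 3.22e-06).

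The remaining receptors gave 3 calls under PARPi alone. EGFR, at 129, 131 and 125 CPM, fell with talazoparib by 0.16 ± 0.04 (adjusted p = 0.00339), whereas its 147, 142 and 134 CPM with olaparib overlapped the DMSO libraries (-0.02 ± 0.04, adjusted p = 0.752). FGFR1, at 6.14, 4.76 and 5.02 CPM, fell with talazoparib by 0.33 ± 0.11 (adjusted p = 0.0143). That call was lost without DMSO replicate A (-0.29, adjusted p = 0.0551), talazoparib replicate B (-0.28, adjusted p = 0.0742) or talazoparib replicate C (-0.30, adjusted p = 0.0531). ERBB3, at 263, 255 and 255 CPM, rose with olaparib by 0.085 ± 0.03 (adjusted p = 0.0112), and this call was lost without DMSO replicate B or C or olaparib replicate A or B (0.05 to 0.08, adjusted p = 0.0506, 0.0902, 0.182 and 0.0509) and with scaling by total counts (0.04, adjusted p = 0.216) or a fit to the compared groups only (0.07, adjusted p = 0.0682). FGFR2 was at -0.36 ± 0.19 (adjusted p = 0.135) with olaparib and -0.32 ± 0.185 (adjusted p = 0.188) with talazoparib. These sizes were above those of the ERBB2 calls and below those of MET and FGFR3, with wider errors than all 3. With olaparib 4 of 8 receptors passed (3 higher, 1 lower) against 35.6% of all genes (19.6% higher and 16.0% lower), with the higher share of the calls at 55.1%, or 43% with scaling by total counts. With talazoparib 5 of 8 passed (2 higher, 3 lower) against 33.8% (18.4% higher and 15.4% lower), with that share at 54.5% and 40%.

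Olaparib and talazoparib were used at unlike doses, 1 µM and 10 nM, and their values are set side by side. Of the 8 receptors, EGFR alone passed the test of the difference, against 8.36% of all genes, with talazoparib lower by -0.14 ± 0.04 (adjusted p = 0.0357). It missed the threshold without olaparib replicate A or B (-0.11 and -0.14, adjusted p = 0.181 and 0.103) and without talazoparib replicate A, B or C (-0.14, -0.15 and -0.12, adjusted p = 0.0632, 0.0664 and 0.199). The 8.36% stands for 1557 genes, and without 1 library the count ran from 595 (talazoparib replicate C) to 1821 (talazoparib replicate A). It was also lower by over 1.5 times without olaparib replicate A (998), B (1035) or C (751) and without talazoparib replicate B (752). For MET the difference was -0.185 with a 95% interval of -0.37 to 0, and for FGFR3 it was -0.06 with an interval of -0.28 to 0.16.

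With an ARPi and a PARPi together, MET stayed near its ARPi level and FGFR3 came back toward or above its DMSO level. MET was at 22.3, 22.3 and 23.4 CPM with abiraterone plus olaparib and 19.4, 19.7 and 19.6 CPM with enzalutamide plus talazoparib. Against DMSO it rose by 1.54 ± 0.07 on the log2 scale (2.9-fold, adjusted p = 7.32e-20) and 1.325 ± 0.07 (2.51-fold, adjusted p = 4.45e-18). FGFR3 was at 8.04, 9.54 and 9.86 CPM with abiraterone plus olaparib, above the DMSO libraries by 0.45 ± 0.11 (adjusted p = 0.000734). With enzalutamide plus talazoparib it was at 6.52, 6.91 and 5.47 CPM and overlapped them (-0.08 ± 0.11, adjusted p = 0.572). ERBB2 rose by 0.72 ± 0.03 and 0.63 ± 0.03, ERBB3 by 0.26 ± 0.03 and 0.325 ± 0.03, and FGFR1 by 0.64 ± 0.10 and 0.88 ± 0.10, while EGFR fell by 0.34 ± 0.04 and 0.29 ± 0.04 (adjusted p from 4.59e-20 to 1.22e-06). In the combination with abiraterone 7 of 8 receptors passed (5 higher, 2 lower) against 62.2% of all genes (31.1% higher and 31.1% lower). In the combination with enzalutamide 6 of 8 passed (4 higher, 2 lower) against 62.4% (31.2% higher and 31.3% lower).

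The PARPi difference for MET was smaller on top of an ARPi than alone. Olaparib added to abiraterone gave -0.14 ± 0.06 on the log2 scale (adjusted p = 0.0908), against -0.665 without abiraterone, and the difference between these effects was 0.52 ± 0.105 (adjusted p = 0.00067). Talazoparib added to enzalutamide gave -0.10 ± 0.06 (adjusted p = 0.212), against -0.85 without enzalutamide, and the difference was 0.75 ± 0.105 (adjusted p = 4.42e-06). All added-PARPi libraries nonetheless lay below the matching ARPi libraries, and the olaparib addition passed with scaling by total counts (-0.17, adjusted p = 0.0448) and with a fit to the compared groups only (-0.15, adjusted p = 0.0437). ERBB2 also responded less to olaparib with abiraterone present: the added effect was 0.01 ± 0.03 (adjusted p = 0.922) and the difference of effects -0.255 ± 0.05 (adjusted p = 0.000178). For enzalutamide and talazoparib the ERBB2 difference was -0.12 ± 0.05 (adjusted p = 0.0857), and -0.17 (adjusted p = 0.00412) without DMSO replicate A.

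FGFR3 rose with a PARPi in the presence of an ARPi as well. Olaparib added to abiraterone raised it by 0.82 ± 0.12 (1.77-fold, adjusted p = 1.02e-06) and talazoparib added to enzalutamide by 1.05 ± 0.12 (2.07-fold, adjusted p = 2e-08). The difference from the PARPi effect alone was 0.21 for olaparib (95% interval -0.12 to 0.54, adjusted p = 0.451) and 0.50 ± 0.17 for talazoparib (adjusted p = 0.0435). The latter missed the threshold on leaving out any of 8 single libraries of the 12 (DMSO A or C, enzalutamide A or C, talazoparib B or C, combination A or B), with values of 0.38 to 0.54 and adjusted p of 0.0517 to 0.153. It also missed the threshold with a fit to the compared groups only (adjusted p = 0.0704) and with a replicate block in the fit (adjusted p = 0.0512). ERBB3 rose by 0.14 ± 0.03 (adjusted p = 8.4e-05) with added olaparib and by 0.17 ± 0.03 (adjusted p = 2.68e-06) with added talazoparib, and its talazoparib effect differed by 0.14 ± 0.04 (adjusted p = 0.00811) from that without enzalutamide. EGFR differed likewise by 0.24 ± 0.06 (adjusted p = 0.00757), from -0.16 alone to 0.08 (adjusted p = 0.168) with enzalutamide, where the latter passed with the compared groups only (0.08, adjusted p = 0.0238). For FGFR1 the difference was 0.39 ± 0.14 (adjusted p = 0.0638), and it passed with DESeq2 (0.40, adjusted p = 0.0336), with no filter on low counts (adjusted p = 0.0461), and without DMSO replicate C (0.45, adjusted p = 0.0497), talazoparib replicate A (0.53, adjusted p = 0.011) or combination replicate C (0.46, adjusted p = 0.0474).

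ERBB2 rose by 0.09 ± 0.03 (adjusted p = 0.0214) and FGFR4 fell by 0.35 ± 0.13 (adjusted p = 0.0403) when talazoparib was added to enzalutamide. Both calls were lost without enzalutamide replicate A (0.08 and -0.33, adjusted p = 0.0822 and 0.107) and without combination replicate A (0.08 and -0.31, adjusted p = 0.079 and 0.136). The FGFR4 call was also lost without enzalutamide replicate C (-0.33, adjusted p = 0.115) and combination replicate C (-0.25, adjusted p = 0.221). With scaling by total counts the ERBB2 call was lost (0.07, adjusted p = 0.0754), and with no filter on low counts the FGFR4 call (-0.34, adjusted p = 0.106). With olaparib added to abiraterone 2 of 8 receptors passed against 29.2% of all genes, and with talazoparib added to enzalutamide 4 of 8 against 34.4%, or 2 of 8 without either replicate A named above. For the differences of effects the counts were 2 of 8 against 12.8% and 4 of 8 against 12.6%.

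**Figure D3:**
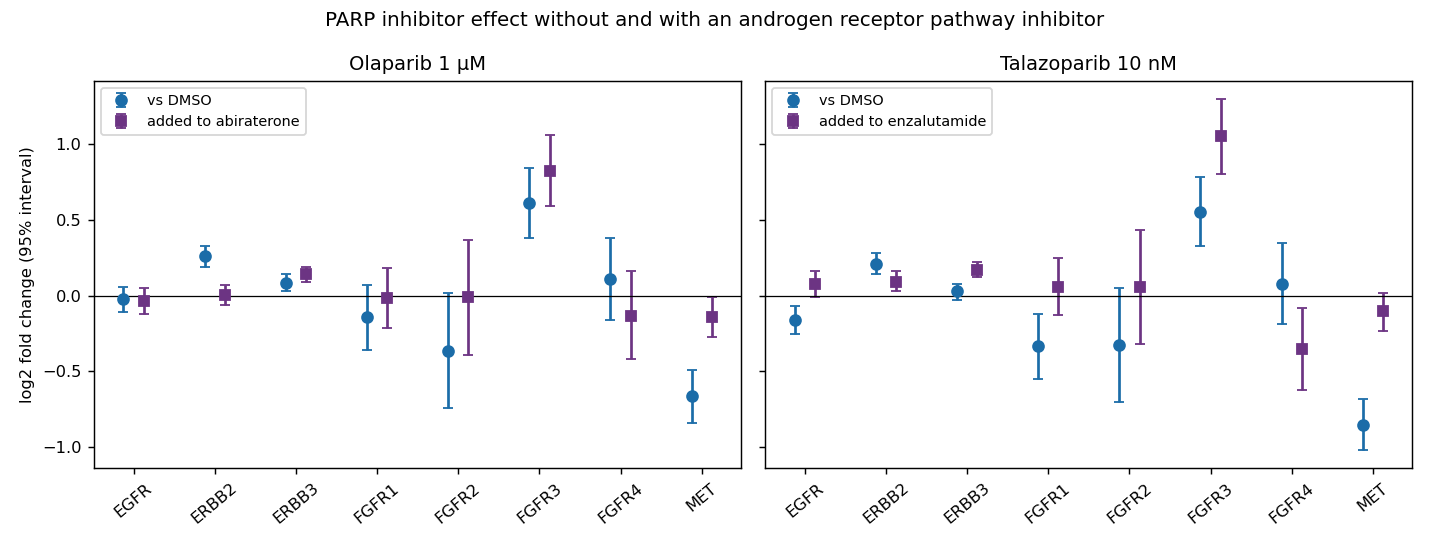
Log2 fold change of the 8 tested receptors for a PARPi against DMSO (circles) and for the same PARPi added to an ARPi (squares), with 95% intervals (3 libraries per group), for olaparib at 1 µM and talazoparib at 10 nM. MET moved from -0.665 to -0.14 and from -0.85 to -0.10, and FGFR3 lay above 0 in all 4 cases.

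Ordered by mean level in the panel, MET ran from abiraterone (25 CPM) through abiraterone plus olaparib (22.7), enzalutamide (21.0), enzalutamide plus talazoparib (19.6), DMSO (7.78) and olaparib (4.93) to talazoparib (4.34). Neighbours in this order overlapped only for abiraterone plus olaparib with enzalutamide and for olaparib with talazoparib. For FGFR3 the order was olaparib (10.2 CPM), talazoparib (9.82), abiraterone plus olaparib (9.15), DMSO (6.67), enzalutamide plus talazoparib (6.30), abiraterone (5.16) and enzalutamide (3.01). The first 3 groups overlapped their neighbours and stood clear of DMSO, the next 3 overlapped theirs, and enzalutamide stood apart. ERBB2 ran from the combination with abiraterone (226 CPM) and abiraterone (225), which overlapped, through the combination with enzalutamide (212), enzalutamide (199), olaparib (165) and talazoparib (159), which overlapped, to DMSO (138).

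In the time course, MET and FGFR3 differed by at most 0.31 on the log2 scale from DMSO after 1 day of olaparib. MET was at 15.1, 14.4 and 13.3 CPM with DMSO, 16.2, 16.3 and 14.5 CPM at 1 µM (0.14 ± 0.06, adjusted p = 0.123) and 15.5, 17.0 and 16.4 CPM at 5 µM. It rose at 5 µM by 0.20 ± 0.06 on the log2 scale (adjusted p = 0.00773), a call lost without DMSO replicate 3 (0.15, adjusted p = 0.0737). FGFR3 was at 7.08, 7.78 and 7.04 CPM with DMSO and 7.21, 7.42 and 7 CPM at 1 µM, which overlapped (-0.02 ± 0.08, adjusted p = 0.909). At 5 µM it was at 6.71, 5.35 and 5.64 CPM, below DMSO by -0.31 ± 0.08 (adjusted p = 0.00186).

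The abundant ERBB transcripts already differed at day 1, by small amounts. ERBB2 was at 99.7, 98.9 and 101 CPM with DMSO, and rose by 0.11 ± 0.03 (adjusted p = 0.00174) to 109, 107 and 109 CPM at 1 µM and by 0.15 ± 0.03 (adjusted p = 7.5e-06) to 111, 110 and 111 CPM at 5 µM. ERBB3 rose by 0.11 ± 0.02 (adjusted p = 0.00029) and 0.14 ± 0.02 (adjusted p = 5.2e-07). EGFR fell by 0.08 ± 0.03 (adjusted p = 0.0339) and 0.11 ± 0.03 (adjusted p = 0.00143). The EGFR call at 1 µM was lost without DMSO replicate 1 or 3 or olaparib replicate 1, 2 or 3 (-0.05 to -0.09, adjusted p = 0.271, 0.055, 0.0796, 0.0577 and 0.116), with no filter on low counts (-0.08, adjusted p = 0.0702) and with the compared groups only (-0.08, adjusted p = 0.0593), and both EGFR calls were lost with scaling by total counts (-0.06 and -0.06, adjusted p = 0.134 and 0.0536). FGFR1 at 5 µM was at 9.65, 7.98 and 7.33 CPM against 7.36, 6.82 and 7.10 CPM, which overlapped, and passed at 0.23 ± 0.09 (adjusted p = 0.0297). Without olaparib replicate 1 its value was 0.11 (adjusted p = 0.362), and it also missed the threshold without DMSO replicate 2 (0.20, adjusted p = 0.104) or 3 (0.24, adjusted p = 0.0617) and with DESeq2 (0.23, adjusted p = 0.0632). At 1 µM 3 of 8 receptors passed (2 higher, 1 lower) against 15.8% of all genes (6.30% higher and 9.52% lower), and at 5 µM 6 of 8 (4 higher, 2 lower) against 45.0% (21.6% higher and 23.4% lower). The higher share of the calls over all genes was 39.8% and 48%, and with scaling by total counts 59.9% and 60.3%. The 15.8% stands for 2928 genes, a count that was 1932 without DMSO replicate 1.

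By day 5 MET and FGFR3 had parted in both directions and with dose. MET was at 13.1, 13.9 and 12.3 CPM with DMSO, 5.58, 6.18 and 5.95 CPM at 1 µM, and 3.56, 3.37 and 3.66 CPM at 5 µM. No groups overlapped. MET fell by 1.15 ± 0.07 on the log2 scale (adjusted p = 3.7e-16) at 1 µM and by 1.89 ± 0.08 (3.71-fold lower, adjusted p = 3.81e-22) at 5 µM, with a step between the doses of -0.74 ± 0.09 (adjusted p = 6.63e-09). FGFR3 was at 8.59, 9.29 and 9.01 CPM with DMSO, 13.0, 13.9 and 13.6 CPM at 1 µM, and 16.8, 19.3 and 18.6 CPM at 5 µM, again without overlap. It rose by 0.59 ± 0.07 (adjusted p = 5.32e-09) and 1.03 ± 0.07 (2.04-fold, adjusted p = 4.11e-16), with a dose step of 0.44 ± 0.07 (adjusted p = 4.42e-07).

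ERBB2 followed the dose as well: it was at 105, 109 and 110 CPM with DMSO, 122, 125 and 124 CPM at 1 µM, and 138, 140 and 143 CPM at 5 µM. The rises were 0.19 ± 0.03 (adjusted p = 5.69e-08) and 0.38 ± 0.03 (adjusted p = 7.29e-16), with a dose step of 0.18 ± 0.03 (adjusted p = 8.86e-08). ERBB3 rose by 0.09 ± 0.02 (adjusted p = 0.000621) and 0.13 ± 0.02 (adjusted p = 1.53e-06), with a dose step of 0.04 (adjusted p = 0.115). That step passed with DESeq2 (adjusted p = 0.0493) and without 5 µM replicate 1 (0.06, adjusted p = 0.0279). EGFR was at 131, 128 and 126 CPM with DMSO and 117, 120 and 113 CPM at 5 µM, a fall of 0.14 ± 0.03 (adjusted p = 4.03e-05), whereas at 1 µM it overlapped DMSO. FGFR1 fell by 0.275 ± 0.10 (adjusted p = 0.0143) at 5 µM. That call was lost without DMSO replicate 1 (-0.24, adjusted p = 0.0571) or 5 µM replicate 1 (-0.22, adjusted p = 0.0816), and its dose step of -0.30 ± 0.10 (adjusted p = 0.0106) was lost without 1 µM replicate 2 (-0.25, adjusted p = 0.0665) or 5 µM replicate 1 (-0.25, adjusted p = 0.0675). At 1 µM 4 of 8 receptors passed (3 higher, 1 lower) against 46.3% of all genes (23.4% higher and 22.9% lower), at 5 µM 6 of 8 (3 higher, 3 lower) against 68.2% (34.4% higher and 33.9% lower), and between the doses 5 of 8 against 53.6%. With scaling by total counts the higher share of the calls moved from 50.5% to 45.1% at 1 µM and from 50.4% to 42.3% at 5 µM.

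**Figure D4:**
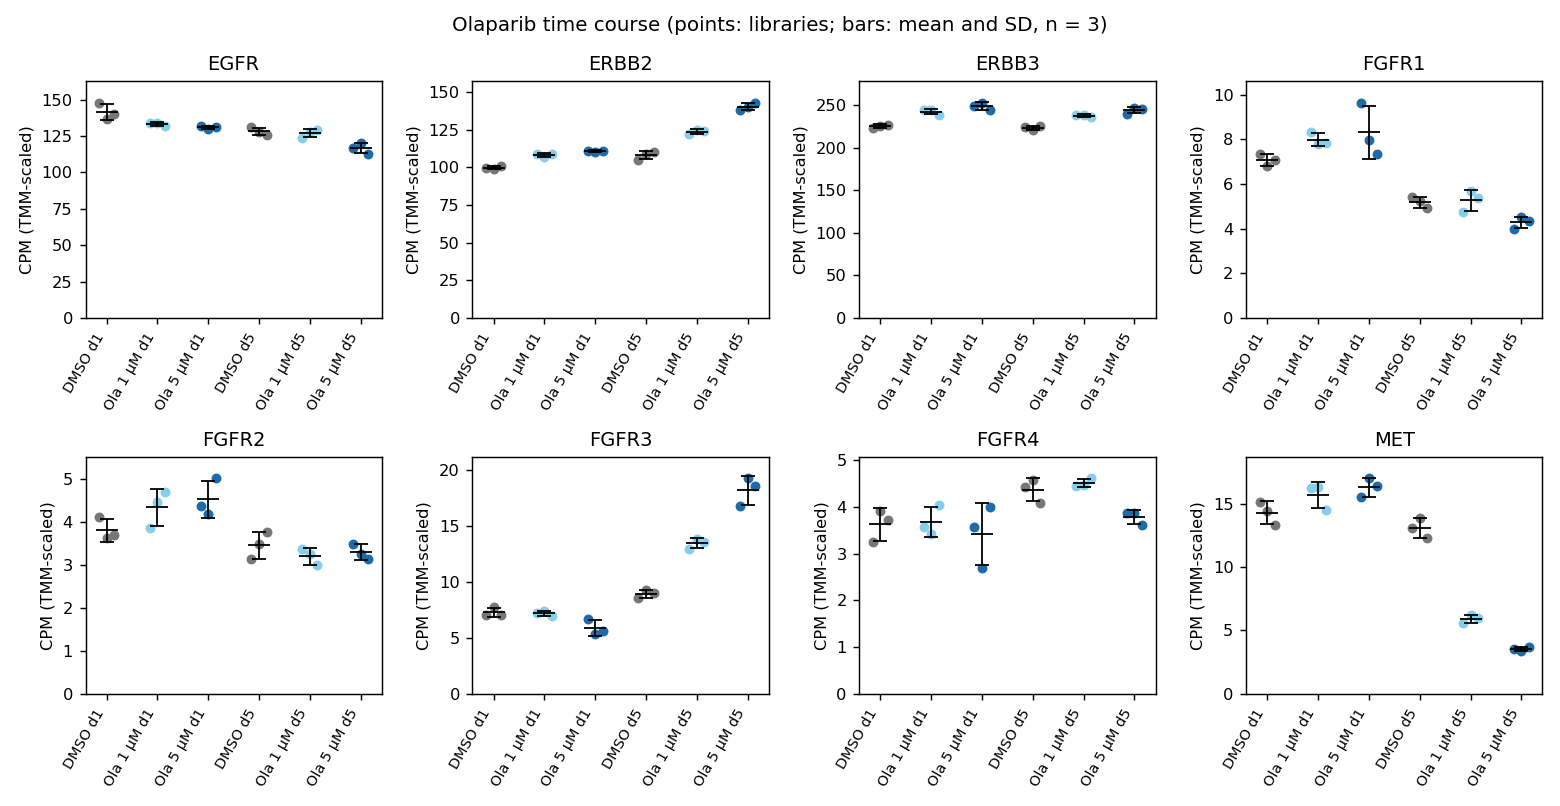
CPM of the 8 tested receptors in the 6 time-course groups on linear axes from 0, with points for libraries and bars for the mean and SD (n = 3). MET at day 5 stepped down from 13.1 to 5.90 and 3.53 CPM while FGFR3 stepped up from 8.96 to 13.5 and 18.3 CPM.

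The olaparib effect on MET and FGFR3 differed between the days. For MET the day 5 effect minus the day 1 effect was -1.29 ± 0.09 (adjusted p = 1.44e-13) at 1 µM and -2.09 ± 0.10 (adjusted p = 1.02e-19) at 5 µM, and for FGFR3 it was 0.61 ± 0.10 (adjusted p = 1.42e-05) and 1.335 ± 0.105 (adjusted p = 1.64e-13). At 5 µM it was 0.23 ± 0.04 for ERBB2 (adjusted p = 1.47e-06) and -0.51 ± 0.13 for FGFR1 (adjusted p = 0.00138). These were 2 of 8 receptors against 29.8% of all genes at 1 µM and 4 of 8 against 54.9% at 5 µM, and 7 of 8 at 5 µM with scaling by total counts. DMSO libraries themselves differed between day 5 and day 1 for 4 of 8 receptors against 24.5% of all genes: FGFR3 by 0.29 ± 0.075 (adjusted p = 0.00351), ERBB2 by 0.12 ± 0.03 (adjusted p = 0.000694), EGFR by -0.14 ± 0.03 (adjusted p = 0.000221) and FGFR1 by -0.45 ± 0.09 (adjusted p = 0.000326). For MET this was -0.12 ± 0.06 (adjusted p = 0.175). In order of mean level, the 4 MET groups from 5 µM at day 1 down to DMSO at day 5 each overlapped the next, and both olaparib groups of day 5 stood apart below them.

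Olaparib at 1 µM for 5 days was run in both experiments, so its effect could be compared. FGFR3 rose by 0.61 in the panel and by 0.59 in the time course, a difference of -0.005 with a 95% interval of -0.27 to 0.26. For ERBB2 the difference was -0.05 (interval -0.14 to 0.03). MET fell further in the time course, by a difference of -0.47 ± 0.11 (adjusted p = 0.0125), and it was the 1 receptor of 8 that passed, against 1.94% of all genes. The 1.94% stands for 377 genes, a count that ran from 176 (without panel olaparib replicate C) to 589 (without panel DMSO replicate C) on leaving out 1 library and was 671 with DESeq2. The MET call was lost without panel olaparib replicate B (-0.41, adjusted p = 0.0647) or C (-0.43, adjusted p = 0.0702). MET in DMSO at day 5 stood at 7.78 ± 0.36 CPM in the panel and 13.1 ± 0.77 CPM in the time course (SD, n = 3), each scaled within its own experiment. The experiments had no library in common, so the experiment and anything else that went with it cannot be told apart.

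**Figure D5:**
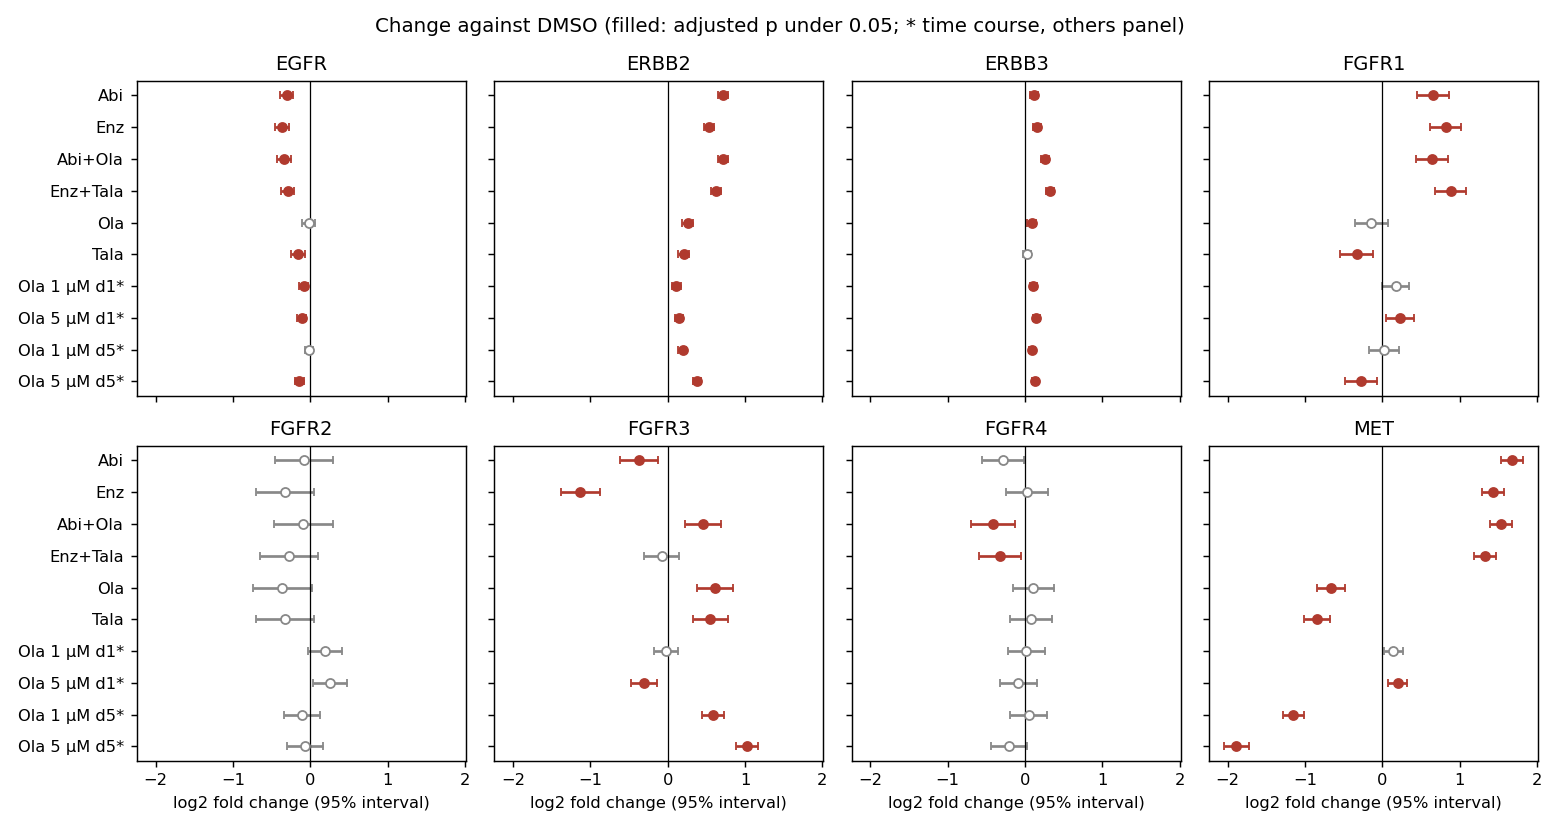
Log2 fold change against DMSO with 95% intervals for the 8 tested receptors in the 10 comparisons with DMSO, filled where the adjusted p was under 0.05, from 3 libraries per group. MET lay above 1.3 in the 4 groups with an ARPi and below -0.6 in the 4 groups with a PARPi alone for 5 days.

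FGFR2 and FGFR4 gave few calls. FGFR2 had 56 to 193 counts per library and passed in 0 of the 21 comparisons with edgeR or DESeq2, with 1 at an unadjusted p under 0.05. Its adjusted p was 0.0635 at 5 µM of day 1 (0.25 ± 0.11), and that difference passed with scaling by total counts (0.30, adjusted p = 0.025) and without DMSO replicate 1 (0.31, adjusted p = 0.0459) or olaparib replicate 2 (0.30, adjusted p = 0.0467). FGFR4 had 89 to 206 counts. It was at 4.62, 4.45 and 3.47 CPM with DMSO in the panel, 2.90, 2.81 and 3.70 CPM with abiraterone plus olaparib, and 3.18, 3.89 and 2.87 CPM with enzalutamide plus talazoparib, groups that overlapped. It fell by 0.42 ± 0.14 (adjusted p = 0.00956) and 0.33 ± 0.135 (adjusted p = 0.0355). The former call was lost without DMSO replicate A (-0.34, adjusted p = 0.0532) or combination replicate B (-0.34, adjusted p = 0.0641), and the latter without DMSO replicate A or B or combination replicate A or C (-0.23 to -0.29, adjusted p = 0.108 to 0.183), with scaling by total counts (-0.29, adjusted p = 0.0619), with no filter on low counts (-0.30, adjusted p = 0.117) and with the compared groups only (-0.32, adjusted p = 0.0816). With abiraterone alone FGFR4 differed by -0.285 ± 0.14 (adjusted p = 0.0813), and by -0.41 (adjusted p = 0.0197) without DMSO replicate C. At 5 µM of day 5 FGFR4 differed by -0.21 ± 0.12 (adjusted p = 0.114), and with scaling by total counts it passed there (-0.29, adjusted p = 0.0281). Its step from 1 to 5 µM was -0.255 ± 0.12 (adjusted p = 0.0664), and it passed with scaling by total counts (-0.31, adjusted p = 0.0236) and with the compared groups only (-0.26, adjusted p = 0.0444). 

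Few ligands of these receptors were measured above the filter in the same cells. HGF, the ligand of MET, had 0 to 7 counts per library and was not tested, and a count of 0 allows up to 3 counts in a library. Of 11 ERBB ligands 4 were tested, EGF, TGFA, HBEGF and NRG4, and AREG, EREG and NRG1 had at most 2 counts in any library. TGFA, which binds EGFR, stood at 1.99 CPM with DMSO in the panel, 5.29 CPM with abiraterone and 5.41 CPM with enzalutamide, a rise of 1.42 ± 0.14 (adjusted p = 1.78e-10) and 1.46 ± 0.14 (adjusted p = 7.55e-11). HBEGF, which binds EGFR and ERBB4, rose by 0.69 ± 0.105 (adjusted p = 7.21e-07) and 0.70 ± 0.10 (adjusted p = 5.04e-07). Both ligands also rose in the combinations, by 1.43 and 1.415 for TGFA and by 0.66 and 0.58 for HBEGF (adjusted p from 9.4e-11 to 9.84e-06). With a PARPi alone in the panel TGFA gave -0.08 and -0.02 (adjusted p = 0.748 and 0.953), and in the time course it gave 0.08 (adjusted p = 0.71) at 1 µM of day 5. It rose by 0.78 ± 0.15 (adjusted p = 2.41e-05) at 5 µM of day 5, and at day 1 by 0.51 (adjusted p = 0.0139) and 0.98 (adjusted p = 4.93e-07) at 1 and 5 µM. EGF fell by 0.38 ± 0.07 (adjusted p = 3.35e-05) with abiraterone, by 0.29 ± 0.07 (adjusted p = 0.00133) with olaparib and by 0.75 ± 0.07 (adjusted p = 8.86e-11) with the 2 together. In all, 3 of 4 ERBB ligands passed with abiraterone (2 higher), 2 of 4 with enzalutamide (2 higher), 1 of 4 with olaparib and with talazoparib (lower), against 52.9%, 53.3%, 35.6% and 33.8% of all genes tested, and the median over the 4 was 0.16, 0.36, -0.13 and 0.04 on the log2 scale, beside 0, 0.02, 0.015 and 0.02 over all genes.

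Of 18 FGF ligands 3 were tested in the panel and 4 in the time course, all at low counts. FGF21, an endocrine FGF that needs beta-klotho, had 12 to 23 counts per library with DMSO in the panel, 1 to 5 with abiraterone, 17 to 19 with enzalutamide, 1 to 3 with olaparib and 4 to 9 with talazoparib, and it was lower with abiraterone (adjusted p = 0.00184), olaparib (adjusted p = 0.000243) and talazoparib (adjusted p = 0.00857). FGF18 was tested in the time course and had 2 to 6 counts with DMSO at day 5, 8 to 18 at 1 µM and 22 to 34 at 5 µM (adjusted p = 0.00604 and 1.03e-06). FGF22 was at 0.31 CPM with DMSO at day 5 and rose to 0.73 and 1.02 CPM (adjusted p = 0.00179 and 7.98e-06), while FGF7, a ligand of FGFR2, fell from 0.26 to 0.11 and 0.10 CPM (adjusted p = 0.0362 and 0.0185). All 4 tested ligands thus passed at day 5 for either dose, 2 higher and 2 lower, against 46.3% of all genes at 1 µM and 68.2% at 5 µM, with a median of 0 at 1 µM and 0.20 at 5 µM. In the panel 1 of 3 passed, FGF21, with abiraterone, olaparib or talazoparib, against 52.9%, 35.6% and 33.8% of all genes (medians 0.07, -0.59 and -0.33). At counts this low a gene can pass the filter only through the groups where it is high. FGF18, with 2 to 6 counts with DMSO at day 5, is such a case. The numbers of FGF ligands that passed are therefore partly set by the filter.

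Among the FGF co-receptors, KL fell with each ARPi alone and rose with each PARPi alone in the panel, the directions FGFR3 took. KL encodes klotho, the co-receptor for FGF23. It had 24 to 46 counts per library with DMSO in the panel, 6 to 8 with abiraterone, 2 to 6 with enzalutamide, 54 to 78 with olaparib and 65 to 75 with talazoparib. KL fell by 2.14 (adjusted p = 5.67e-06) and 3.46 (adjusted p = 7.16e-09) with the ARPi and rose by 0.94 (adjusted p = 0.00906) and 0.77 (adjusted p = 0.034) with the PARPi. In the combinations KL fell by 2.05 (adjusted p = 7.2e-06) and 2.51 (adjusted p = 2.27e-07). There it parted from FGFR3, which was at 0.45 (adjusted p = 0.000734) and -0.08 (adjusted p = 0.572) against DMSO. At day 5 of the time course KL rose by 1.35 (adjusted p = 1.02e-07) at 1 µM and 2.00 ± 0.18 (adjusted p = 1.72e-12) at 5 µM. FGFRL1, an FGF receptor without a kinase domain, stood at 128 CPM with DMSO in the panel and rose with each of the 6 treatments, by 0.155 to 0.48. In the time course it fell at 5 µM of day 1 by 0.225 ± 0.03 (adjusted p = 5.42e-08) and rose at day 5 by 0.09 ± 0.03 (adjusted p = 0.0125) and 0.45 ± 0.03 (adjusted p = 1.67e-16). KLB, beta-klotho, rose by 0.595 ± 0.13 (adjusted p = 0.00023) with abiraterone and 0.365 ± 0.13 (adjusted p = 0.019) with enzalutamide. All 3 genes passed with abiraterone and with enzalutamide (2 higher, 1 lower) and with olaparib (3 higher), and 2 with talazoparib (2 higher), against 52.9%, 53.3%, 35.6% and 33.8% of all genes, with medians of 0.34, 0.155, 0.42 and 0.31.

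Sheddases release membrane-bound ERBB ligands. ADAM10, which sheds EGF among others, rose with all 6 treatments of the panel, from 218 CPM with DMSO to 343 CPM with abiraterone, 302 CPM with enzalutamide, and 258 and 250 CPM with olaparib and talazoparib, and to 416 and 363 CPM in the combinations (0.20 to 0.93 on the log2 scale, adjusted p from 2.48e-24 to 2.1e-06). RHBDF1, a partner of the sheddase ADAM17, rose by 0.51 ± 0.07 (adjusted p = 3.43e-07) with olaparib and by 1.02 ± 0.06 (adjusted p = 1.06e-17) at 5 µM for 5 days, and RHBDF2 fell with abiraterone by 0.26 ± 0.06 (adjusted p = 0.000316) and with enzalutamide by 0.32 ± 0.06 (adjusted p = 1.96e-05). Of the 4 genes of this list, 3 passed with abiraterone, 2 with enzalutamide, 4 with olaparib (4 higher), 3 with talazoparib (3 higher) and 4 at 5 µM of day 5 (4 higher), against 52.9%, 53.3%, 35.6%, 33.8% and 68.2% of all genes, with medians of 0.14, 0.01, 0.27, 0.22 and 0.59.

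Among negative regulators of these receptors, SPRY4 and LRIG1 each changed direction between the drug classes. SPRY4, a Sprouty protein induced by and restraining RAS-ERK signalling, stood at 3.00 CPM with DMSO, 9.02 CPM with abiraterone, 7.19 CPM with enzalutamide, 1.86 CPM with olaparib and 1.99 CPM with talazoparib. It rose by 1.58 ± 0.15 (adjusted p = 1.34e-10) and 1.25 ± 0.15 (adjusted p = 1.66e-08) with the ARPi and fell by 0.70 ± 0.17 (adjusted p = 0.0016) and 0.61 ± 0.17 (adjusted p = 0.00487) with the PARPi. LRIG1, which promotes the turnover of ERBB receptors and MET, went the other way. It fell by 1.01 ± 0.05 (adjusted p = 9.88e-19) and 0.97 ± 0.05 (adjusted p = 1.59e-18) with the ARPi and rose by 0.47 ± 0.04 (adjusted p = 1.45e-10) with olaparib and 0.39 ± 0.04 (adjusted p = 7.9e-09) with talazoparib. ERRFI1, an inhibitor of ERBB kinases, rose by 0.525 ± 0.03 (adjusted p = 2.42e-14) with olaparib, and CBL, a ubiquitin ligase for EGFR and MET, fell by 0.60 ± 0.05 (adjusted p = 3.75e-09) with talazoparib. LRIG3 fell by 1.40 ± 0.06 (adjusted p = 5.76e-21) at 5 µM of day 5. Of 19 genes on this list 14 passed with abiraterone (8 higher, 6 lower), 15 with enzalutamide (10 higher, 5 lower), 11 with olaparib (3 higher, 8 lower), 12 with talazoparib (4 higher, 8 lower) and 13 at 5 µM of day 5 (6 higher, 7 lower). Over all genes 52.9%, 53.3%, 35.6%, 33.8% and 68.2% passed, so the last count was near the background. The list's medians were 0.02, 0.23, -0.16, -0.17 and -0.055.

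Transcripts that ERK signalling induces did not move one way. DUSP4, a nuclear phosphatase of ERK, fell by 1.65 ± 0.09 (adjusted p = 4.51e-13) with abiraterone and 1.59 ± 0.09 (adjusted p = 5.09e-13) with enzalutamide, and rose by 0.46 ± 0.08 (adjusted p = 6.27e-05) with olaparib and 0.41 ± 0.08 (adjusted p = 0.00022) with talazoparib. DUSP5, another ERK phosphatase, rose by 1.31 ± 0.185 (adjusted p = 2.34e-07) with abiraterone and 1.62 ± 0.18 (adjusted p = 1.8e-09) with enzalutamide. PHLDA1 fell by 1.66 ± 0.08 (adjusted p = 4.64e-19) with enzalutamide and by 0.45 ± 0.07 with each PARPi (adjusted p = 6.56e-06 and 6.34e-06). Of 12 tested genes on this list, which shares SPRY2 and SPRY4 with the negative regulators, 5 passed with abiraterone (3 higher), 7 with enzalutamide (5 higher), and 5 with olaparib and with talazoparib (2 higher each), counts near the 52.9%, 53.3%, 35.6% and 33.8% of all genes. Their medians were 0.11, 0.26, -0.29 and -0.21.

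Adaptors and effectors were tested for all 29 genes in the panel. PIK3R1, a regulatory subunit of PI3K, rose by 0.80 ± 0.04 (adjusted p = 5.74e-18) with abiraterone and 0.60 ± 0.04 (adjusted p = 1.7e-14) with enzalutamide, and by 1.20 and 0.95 in the combinations. GRB7, an adaptor encoded beside ERBB2 on chromosome 17, rose by 0.87 ± 0.11 (adjusted p = 4.54e-08) and 0.67 ± 0.11 (adjusted p = 4.79e-06). SHC1 and STAT3 rose with olaparib by 0.49 ± 0.03 (adjusted p = 4.51e-15) and 0.45 ± 0.03 (adjusted p = 3.8e-16), and NRAS fell by 0.96 ± 0.03 (adjusted p = 1.22e-26) at 5 µM of day 5. The list had 20 calls with abiraterone (12 higher, 8 lower), 21 with enzalutamide (12 higher, 9 lower), 17 with olaparib (10 higher, 7 lower) and 20 with talazoparib (9 higher, 11 lower), against 52.9%, 53.3%, 35.6% and 33.8% of all genes, with medians of 0.085, 0.035, 0.01 and 0.

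Other receptor tyrosine kinases gave a comparison group of 31 genes, 16 of them tested in the panel. IGF1R, the receptor for insulin-like growth factors, was at 140 ± 13.7 CPM with DMSO, 30.7 ± 3.28 CPM with abiraterone and 28.5 ± 1.36 CPM with enzalutamide (SD, n = 3), a fall of 2.19 ± 0.08 (adjusted p = 7.93e-13) and 2.31 ± 0.08 (adjusted p = 3.67e-13). It rose by 0.45 ± 0.07 (adjusted p = 0.000102) with olaparib and by 1.00 ± 0.03 (adjusted p = 7.97e-28) at 5 µM of day 5. MST1R, the nearest relative of MET in the kinase family, was at 0.594 CPM with DMSO, 3.01 CPM with abiraterone, 1.98 CPM with enzalutamide and 3.64 CPM with abiraterone plus olaparib, a rise of 2.34 ± 0.23 (adjusted p = 1.08e-10), 1.73 ± 0.24 (adjusted p = 1.06e-07) and 2.62 ± 0.23 (adjusted p = 3.55e-12). ROR1 rose by 1.97 ± 0.06 (adjusted p = 1.97e-26) at 5 µM of day 5. On this list 13 of 16 passed with abiraterone (10 higher, 3 lower), 11 with enzalutamide (8 higher, 3 lower), 5 with olaparib (5 higher) and 7 with talazoparib (6 higher, 1 lower), against 52.9%, 53.3%, 35.6% and 33.8% of all genes, with medians of 0.51, 0.31, 0.12 and 0.16. The 8 tested ERBB, FGF and MET receptors had 6, 6, 4 and 5 calls against those same shares and medians of 0.02, 0.09, 0.03 and -0.07 in the same comparisons.

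Some genes followed the receptors closely across the libraries. Likeness was taken as Pearson's r of log2 CPM over all 39 libraries after removing the mean of each experiment, among 14226 genes. The libraries fall into treatment groups, so r mostly reflects differences between groups, and it is given as a description. For MET the nearest genes were VSIG10 (0.982) and NKAIN3 (0.979), for FGFR3 H4C8 (0.96) and CNDP2 (0.959), and for ERBB2 SEMA3C (0.97) and NHERF1 (0.97). For FGFR1 they were FMNL3 (0.945) and PCGF2 (0.929), for ERBB3 FAM111A (0.925) and NEIL1 (0.917), and for EGFR ATP2A2 (0.894) and ENOX1 (0.89). FGFR4 and FGFR2 had looser neighbours, DAP (0.785) and C9orf72 (0.776) for FGFR4, and AKIP1 (0.677) and RASAL2 (0.66) for FGFR2.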

How the data were processed

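RNA from 39 C4-2B libraries (13 groups of 3) was prepared by poly(A) capture with strand marking and sequenced in pairs. Per the labels and the study's methods, the authors trimmed reads with Trim Galore, aligned them to GRCh38 with STAR and quantified genes with Salmon, and deposited whole-number counts per Ensembl gene, neither filtered nor normalized. Symbols and exon lengths were taken from GENCODE release 44, which matched 62666 of 63187 identifiers, and the 521 others held 0.12% of counts. Salmon's values are estimates, rounded in the deposited table, and reads shared with an overlapping gene can be split between the 2.

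Groups were taken from the labels. Counts were tested with edgeR 4.0.16 (R 4.3.3) by the robust quasi-likelihood test with TMM scaling and filterByExpr, separately for the panel (18625 genes) and the time course (18502), and jointly (19392) for the effect of olaparib in both. Adjusted p is Benjamini-Hochberg over all genes tested, with a threshold of 0.05, and SE is the log2 fold change over the square root of F. The scripts were checked on simulated counts first. No pair of replicates agreed within sampling noise (chi-square per degree of freedom 2.18 to 6.03 over 39 pairs).

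The receptors, gene lists and tests were chosen with earlier results of these data known. Named list genes were up to 3 per list and comparison with the largest change past the threshold and at least 100 mean counts in the higher group. Any ligand or co-receptor past the filter could also be named. Further values of a gene so named are given in other comparisons. AREG, EREG, NRG1 and HGF, which failed the filter, and MST1R with a single ARPi were named after their values were seen. Promoter sequences are from RefSeq on GRCh38.p14. Alternatives were DESeq2 1.42.0, RLE or total-count scaling, other filters, a fit of the compared groups only, a replicate block and leaving out each library.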

Additional observations from a re-analysis of the deposited data

Results flagged for a closer look

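Receptor effects that differed between the settings in which the same drug was given are listed here with the log2 difference of the effects. All are interaction terms of the edgeR fits and were past an adjusted p of 0.05.

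For the PARPi effect with minus without an ARPi, the difference was 0.52 for MET and -0.26 for ERBB2 with olaparib and abiraterone. With talazoparib and enzalutamide it was 0.75 for MET, 0.50 for FGFR3, 0.24 for EGFR and 0.14 for ERBB3. MET fell with either PARPi alone and gave differences of -0.14 and -0.10, not past the threshold, on top of an ARPi. The FGFR3 term is the least stable of these, since leaving out any 1 of 8 libraries ended the call, as did a replicate block (adjusted p = 0.0512).

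For the olaparib effect at day 5 minus day 1, the difference at 1 µM was -1.29 for MET and 0.61 for FGFR3. At 5 µM it was -2.09 for MET, 1.33 for FGFR3, 0.23 for ERBB2 and -0.51 for FGFR1. At 5 µM MET rose at day 1 and fell at day 5, and FGFR3 fell at day 1 and rose at day 5. The day 1 rise of MET was lost without DMSO replicate 3 (0.15, adjusted p = 0.0737).

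For olaparib at 1 µM and 5 days, the MET effect in the time course minus that in the panel was -0.47. The MET level with DMSO also differed between the experiments, 13.1 against 7.78 CPM, and whether the 2 are linked was not tested.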

How the results depend on the processing

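No called receptor value changed sign under the alternatives run: 2340 recomputed values kept their side of the threshold, 63 lost it and 21 gained it, of which 49 and 8 came from leaving out 1 library. Of the counts of calls, that of receptors for the 5 µM olaparib effect by day rose from 4 to 7 with total-count scaling, where EGFR (-0.16, adjusted p = 0.000278), ERBB3 (-0.15, adjusted p = 4.81e-05) and FGFR2 (-0.44, adjusted p = 0.0168) were added, and that of all genes for the olaparib effect in the time course against the panel rose from 377 to 671 with DESeq2. Without single libraries, all-gene counts for this contrast ran from 176 to 589 and receptor counts from 0 to 1, for talazoparib against olaparib from 595 to 1821 (1557 with all libraries) and from 0 to 1, for talazoparib added to enzalutamide from 2 to 4 receptors, and for 1 µM olaparib at day 1 from 1932 (without DMSO replicate 1) to 2711 genes (2928 with all libraries). The replicate numbers did not pair the samples (correlations of deviations from -0.13 to 0.12), and a fit with a replicate block changed 1 receptor call, FGFR3 in the difference of talazoparib effects (0.50, adjusted p = 0.0512). RLE scaling and a filter of at least 10 counts in every library of a group changed no receptor call. Counts of 56 to 206 per library limit FGFR2 and FGFR4, which had wider 95% intervals than ERBB2, ERBB3 and EGFR.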

Other observations

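ETV4 and ETV5, transcription factors that FGF and ERK signalling are known to induce, were measured at low counts and are named here after their values were seen. Both are on the list of 14 ERK-induced transcripts, which did not move one way. DUSP4 on that list fell with enzalutamide and rose with each PARPi. Of the list's 12 tested genes 7 passed with enzalutamide (5 higher, 2 lower), against 53.3% of all genes. With olaparib and with talazoparib 5 passed (2 higher, 3 lower), against 35.6% and 33.8%. ETV4 stood at 1.39 CPM with DMSO in the panel, 3.16 CPM with enzalutamide, 0.462 CPM with olaparib and 0.62 CPM with talazoparib. It rose by 1.19 on the log2 scale (adjusted p = 0.000751) with enzalutamide and fell by 1.58 (adjusted p = 0.000348) and 1.17 (adjusted p = 0.00445) with the PARPi. With abiraterone its difference was 0.30 (adjusted p = 0.409). At day 5 of the time course ETV4 was at 1.21 CPM with DMSO, 0.40 CPM at 1 µM and 0.103 CPM at 5 µM olaparib, with 3 to 4 counts per library in the last group (adjusted p = 6.89e-07 and 7.69e-13). ETV5 fell in the same groups by 0.82 (adjusted p = 0.002) and 1.05 (adjusted p = 8.23e-05). In the panel ETV5 rose by 0.77 (adjusted p = 0.00601) with enzalutamide, and its -0.51 (adjusted p = 0.117) with olaparib and -0.40 (adjusted p = 0.226) with talazoparib did not pass.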
